A study of Homo sapiens with 6 samples.

Results

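The 10 genes described here encode the cell surface receptors, the ligand and the cytoplasmic proteins through which TRAIL, FAS ligand and tumour necrosis factor can kill a cell. They were chosen by name: the receptors TNFRSF10A, TNFRSF10B, FAS and TNFRSF1A, the ligand TNFSF10, the caspase-8 complex genes FADD, CASP8 and CFLAR, and the necroptosis genes RIPK3 and MLKL. All 10 were found among the 17149 genes of the tables through their Entrez gene numbers, and 9 of the 10 were among the 11135 genes with at least 1 FPKM (fragments per kilobase of transcript, scaled to the mapped fragments of the library) in at least 3 libraries, which were tested. RNA came from MDA-MB-231 cells, an established human line of triple negative breast cancer, which lacks the oestrogen, progesterone and HER2 receptors. The cells were transfected either with a control siRNA (siControl, 3 libraries) or with siRNA against RBCK1 (siRBCK1, 3 libraries), and both groups received no other treatment that the labels name. No source used here names the RBCK1 siRNA sequence in the sequenced cells, and the whole experiment rests on 1 cell line.

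A ligand of this family gathers its receptor into clusters, and the death domain of the receptor then recruits the adaptor FADD, which brings in the protease caspase-8. Caspase-8 pairs either with itself, which starts apoptosis, or with cFLIP, the product of CFLAR, which limits its activity. Where caspase-8 is blocked, the kinase RIPK3 can phosphorylate MLKL, which then breaks the plasma membrane in a form of death called necroptosis. RBCK1, also called HOIL-1, is a subunit of LUBAC, the ligase that builds linear ubiquitin chains on receptor complexes and so holds back their change into death complexes. The comparison of siRBCK1 with siControl asked how far the mRNAs of this machinery differed after RBCK1 depletion.

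The targeted gene, RBCK1, measured 64.96, 63.62 and 73.37 FPKM in the siControl libraries (here and below in the order of replicates 1, 2 and 3) against 41.53, 46.15 and 45.61 FPKM in the siRBCK1 libraries. The groups did not overlap, and 66.0% of the control mean remained (log2 fold change -0.59, SE 0.067, limma adjusted p = 6.55e-05). Sums of FPKM ran from 587248.4 to 659065.0 per library, but read totals are not given, so the depth behind each value is unknown and no interval for counting error can be stated. The first principal component of the tested genes held 78.7% of the variance and separated the groups, with siControl replicate 3 at -25.55 away from the other siControl libraries at -15.45 and -14.58. Of 9 genes known to be high in this line 8 were tested and present, with SPARC under 1 FPKM in all libraries. Of 8 luminal breast markers 4, ESR1, PGR, FOXA1 and CDH1, were under 1 FPKM in all libraries, whereas GATA3, KRT19, EPCAM and ERBB3 were tested, and the list summed to 253 to 291 FPKM in siControl and 204 to 220 FPKM in siRBCK1, most of it KRT19. T and B cell markers summed to between 0.33 and 1.06 FPKM over all libraries, endothelial markers to between 0.46 and 0.69 FPKM, and fibroblast and fat cell markers to 4.03 to 4.51 FPKM in siControl and 6.3 to 6.49 FPKM in siRBCK1, of which COL1A1 made up most. The myeloid markers summed to 105 to 112 FPKM in siControl and 92.5 to 95.7 FPKM in siRBCK1, nearly all of it CD68, a lysosomal gene that many cell types express. The part of these differences in the results for the death receptor genes was not tested.

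CASP8, TNFRSF10B and TNFRSF1A were higher in siRBCK1, and MLKL, TNFSF10 and CFLAR were lower, at an adjusted p under 0.05. TNFRSF10A, FAS and FADD did not pass the test, and RIPK3, near 0 in every library, was not tested. Thus 3 of the 9 tested genes rose and 3 fell, beside 36.8% of all tested genes that rose and 17.1% that fell (limma on log2(FPKM + 1), two-sided, Benjamini-Hochberg over all tested genes). MLKL moved most, to 51.3% of its control mean, while the other 5 called genes moved by 1.31-fold or less upwards and to no less than 81.8% downwards. The groups did not overlap for 4 genes that were higher (CASP8, TNFRSF10B, TNFRSF1A and FAS) and for 3 that were lower, where 42.7% and 20.1% of all tested genes did so. The median of all tested genes lay at a log2 fold change of 0.11, and the median of the 9 tested death receptor genes at 0.13. With quantile normalization, which brings the median of all genes to 0.01, 2 of the 9 rose and 3 fell, beside 25% and 24.3% of all genes. With trimmed-mean scaling the counts were again 2 and 3, beside 24.7% and 25.4%. TNFRSF1A was the gene whose call was lost with either scaling. The labels do not say that the 3 libraries of a group came from separate cultures, so the p-values reflect only how these libraries vary, and that variation may be technical. In RNA from a whole culture, fewer cells that express a gene and less RNA per cell cannot be told apart.

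**Figure D1:**
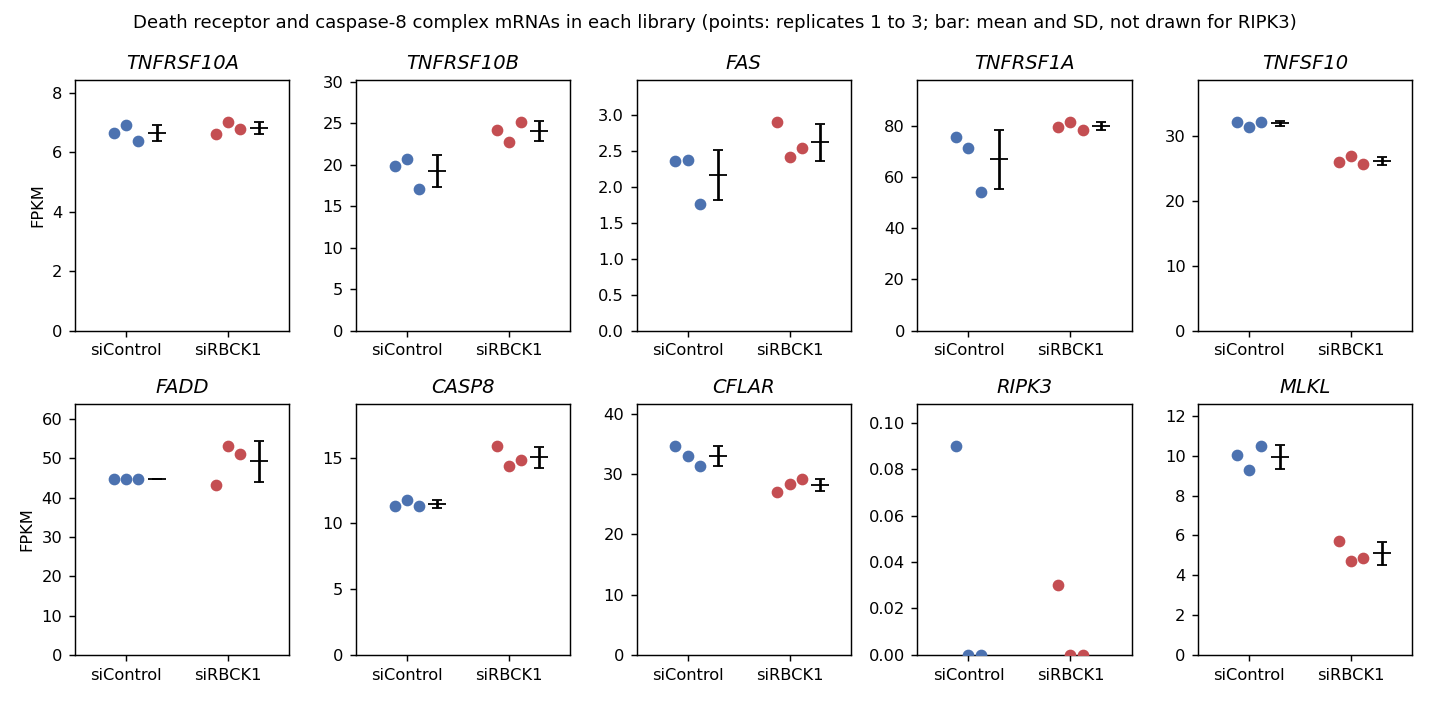
FPKM (vertical axis, linear and from 0, with its own range in each panel) of the 10 genes in the 3 siControl (blue) and 3 siRBCK1 (red) libraries, with the mean and SD as a bar beside the points except for RIPK3. The MLKL points lie at 9.29 to 10.49 FPKM in siControl and 4.69 to 5.74 FPKM in siRBCK1, and RIPK3 is at 0.09 FPKM or less throughout.

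**Figure D2:**
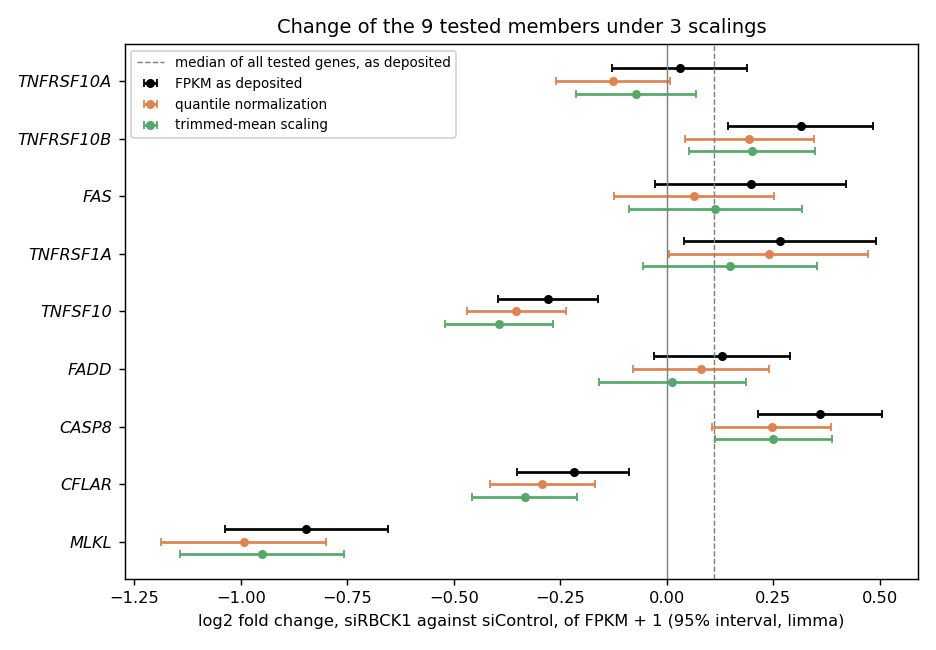
Log2 fold change of FPKM + 1 in siRBCK1 against siControl (horizontal axis) with its 95% interval from limma for the 9 tested genes, on the deposited values (black) and after quantile normalization (orange) or trimmed-mean scaling (green); the dashed line marks the median of all tested genes, 0.11. MLKL stands at -0.85, -0.99 and -0.95, and TNFRSF10A at 0.03, -0.13 and -0.07 with intervals that include 0.

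Among the receptors, TNFRSF10B was higher after RBCK1 depletion and TNFRSF10A showed no detectable difference. Both bind TRAIL and carry a death domain, TNFRSF10A being known as DR4 and TNFRSF10B as DR5. TNFRSF10B was at 19.85, 20.68 and 17.03 FPKM in siControl and at 24.14, 22.76 and 25.19 FPKM in siRBCK1. Every siRBCK1 library was above every siControl library, and the lowest value belonged to siControl replicate 3. Its log2 fold change was 0.31 (SE 0.077, 95% interval 0.14 to 0.48, adjusted p = 0.00626 by limma). The difference was smaller with quantile normalization, at 0.19, with trimmed-mean scaling, at 0.20, and with the trend in gene length removed, at 0.17. It was 0.23 without siControl replicate 3, and it passed the test in each of these settings. TNFRSF10A was at 6.65, 6.93 and 6.39 FPKM in siControl and at 6.63, 7.04 and 6.79 FPKM in siRBCK1, so that the groups lay on top of each other. Its log2 fold change was 0.03, with a 95% interval from -0.13 to 0.19 that leaves room for a small change either way, and its sign turned with either scaling. Within each library there was 2.98, 2.98 and 2.67 times as much TNFRSF10B as TNFRSF10A in siControl, and 3.64, 3.23 and 3.71 times as much in siRBCK1. These genes belong to 1 family with similar sequences, and how the counting treated reads that match several genes is not given. TNFRSF10B overlaps 2 other annotated genes and TNFRSF10A overlaps 3, all on the opposite strand, and strand use in the counting is not given.

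TNFRSF1A, the main receptor for tumour necrosis factor, had the highest level of the 10 genes. It was at 75.76, 71.26 and 53.98 FPKM in siControl and at 79.7, 81.68 and 78.35 FPKM in siRBCK1. The siRBCK1 libraries lay close together above all siControl libraries, and siControl replicate 3 was far below the other controls. The mean rose from 67.0 ± 11.5 to 79.9 ± 1.67 FPKM (SD, n = 3 per group), a log2 fold change of 0.27 with an adjusted p of 0.0466 by limma. This call was the least firm of the 6: without siControl replicate 3 the log2 fold change was 0.12 with an adjusted p of 0.0568, and with quantile normalization and trimmed-mean scaling the adjusted p was 0.0845 and 0.201. FAS, the receptor for FAS ligand, was the lowest of the receptors at 2.36, 2.38 and 1.76 FPKM in siControl and 2.91, 2.41 and 2.54 FPKM in siRBCK1. The lowest siRBCK1 value lay just above the highest siControl value, and the log2 fold change of 0.20 (95% interval -0.03 to 0.42) did not pass the test, with an adjusted p of 0.124 by limma. A change of FAS was thus not detectable with these libraries, and the addition of 1 FPKM understates fold changes at such low levels. FAS overlaps 2 other annotated genes, 1 of them on the opposite strand, and strand use in the counting is not given. Beside FAS, FASLG was listed at 0.03 FPKM or less and TNF at 0.27 FPKM or less in all libraries, so the ligands of FAS and TNFRSF1A were close to 0 in these cells.

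TNFSF10, which encodes TRAIL, was the only well expressed ligand for these receptors. It was at 32.22, 31.44 and 32.14 FPKM in siControl and at 25.95, 26.85 and 25.61 FPKM in siRBCK1. Both groups were tight and well apart, and the mean fell from 31.9 ± 0.429 to 26.1 ± 0.641 FPKM (SD, n = 3 per group). The log2 fold change was -0.28 (SE 0.053, adjusted p = 0.00147 by limma), and it lay between -0.39 and -0.27 over all 15 other settings with the call kept in each. Ligand mRNA and DR5 mRNA therefore moved in opposite directions in the same libraries. TNFSF10 overlaps 1 other annotated gene, on the opposite strand, and strand use in the counting is not given. The region around the transcription start of TNFSF10 is shown because interferon-induced factors are known to act on this gene and the mRNAs of such factors, IRF1 and IRF9, fell here. It is the RefSeq promoter window on GRCh38.p14 from 250 bases before to 50 bases after the start, chr3:172523381-172523680 on the minus strand, and capitals mark a match to an interferon regulatory factor element.
TNFSF10: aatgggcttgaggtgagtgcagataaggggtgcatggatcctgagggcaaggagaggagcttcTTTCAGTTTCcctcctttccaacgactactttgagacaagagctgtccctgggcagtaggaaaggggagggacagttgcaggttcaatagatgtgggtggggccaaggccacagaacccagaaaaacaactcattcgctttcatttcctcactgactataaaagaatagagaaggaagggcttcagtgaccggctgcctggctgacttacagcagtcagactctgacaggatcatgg
The element searched was GAAANNGAAA on both strands, and here it lies on the opposite strand with its first base 187 bases upstream of the start.

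Among the genes of the caspase-8 complex, the mRNA of the protease rose and the mRNA of its inhibitor fell, and protein was not measured in these libraries. CASP8 was at 11.3, 11.79 and 11.32 FPKM in siControl and at 15.89, 14.35 and 14.8 FPKM in siRBCK1. The highest control lay well under the lowest siRBCK1 library, and the mean rose 1.31-fold from 11.5 ± 0.277 to 15.0 ± 0.792 FPKM (SD, n = 3 per group). The log2 fold change was 0.36 (SE 0.066, adjusted p = 0.00117 by limma), with 0.25 after quantile normalization or trimmed-mean scaling and 0.22 with the length trend removed. CFLAR was at 34.71, 33.09 and 31.35 FPKM in siControl and at 27.12, 28.45 and 29.14 FPKM in siRBCK1. The gap between the groups was smaller than for CASP8, and the mean fell from 33.1 ± 1.68 to 28.2 ± 1.03 FPKM. Its log2 fold change was -0.22 (SE 0.060, adjusted p = 0.0103 by limma). It became -0.33 with trimmed-mean scaling and -0.41 with the length trend removed, and the adjusted p came as near the threshold as 0.0496 without siRBCK1 replicate 1. A value per gene sums the long and the short cFLIP transcripts, so these data do not tell which isoform changed. FADD, the adaptor, was at 44.61, 44.72 and 44.7 FPKM in siControl and at 43.19, 53.12 and 51.15 FPKM in siRBCK1. Here siRBCK1 replicate 1 lay below all controls and the other siRBCK1 libraries above them. The log2 fold change of 0.13 (95% interval -0.03 to 0.29) did not pass the test, with an adjusted p of 0.155 by limma. Without siRBCK1 replicate 1 the log2 fold change was 0.22 and the adjusted p was 0.0173, so this call depended on 1 library. FADD overlaps 1 other annotated gene, on the opposite strand, and strand use in the counting is not given.

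CFLAR and CASP8 are neighbours on the plus strand of chromosome 2 (GRCh38, GENCODE annotation). CFLAR spans chr2:201116104-201176687 and CASP8 spans chr2:201233443-201287711, and CASP10, which encodes the sister protease, lies between them at chr2:201182881-201229406. The gaps are 6194 and 4037 bases, and the whole cluster covers 171.6 kb. The mRNAs of these adjacent genes did not move together. CASP10, named here for its position and after its values were seen, was at 11.12, 9.61 and 9.7 FPKM in siControl and at 8.73, 8.02 and 8.35 FPKM in siRBCK1. It thus fell like CFLAR, at a log2 fold change of -0.25 (adjusted p = 0.0195 by limma), and CASP8 rose. The CASP10 call was lost without siControl replicate 1, siRBCK1 replicate 2 or siRBCK1 replicate 3, and its sign was the same in all 15 settings. No other annotated gene overlaps CASP8, whereas CFLAR overlaps 5 other annotated genes, 3 of them on the opposite strand, and whether the counting used strand is not given. The promoter windows of both are shown to compare the starts of genes that lie side by side and changed in opposite directions (RefSeq, GRCh38.p14, the first window listed for each gene). They are chr2:201233213-201233512 for CASP8 and chr2:201118466-201118765 for CFLAR, both on the plus strand.
CASP8: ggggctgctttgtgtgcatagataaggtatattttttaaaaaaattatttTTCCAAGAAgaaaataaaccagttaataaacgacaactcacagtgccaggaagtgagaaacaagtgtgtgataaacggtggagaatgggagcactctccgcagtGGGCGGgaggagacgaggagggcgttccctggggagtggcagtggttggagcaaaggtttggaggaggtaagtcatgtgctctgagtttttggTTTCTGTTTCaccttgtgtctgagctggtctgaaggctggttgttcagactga
CFLAR: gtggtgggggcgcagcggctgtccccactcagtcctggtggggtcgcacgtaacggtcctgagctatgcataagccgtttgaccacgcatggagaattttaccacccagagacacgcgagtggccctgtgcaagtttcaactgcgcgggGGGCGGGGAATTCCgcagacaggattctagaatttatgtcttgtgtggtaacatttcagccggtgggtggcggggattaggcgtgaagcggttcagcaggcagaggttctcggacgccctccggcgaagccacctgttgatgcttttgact
Capitals in the CASP8 window mark, in order, a STAT element 200 bases upstream of the start, a GC box 96 bases upstream and an interferon regulatory factor element on the opposite strand 3 bases upstream. Capitals in the CFLAR window mark a GC box 101 bases upstream that shares bases with an NF-kB element starting 97 bases upstream. CASP8 has 3 listed windows and CFLAR has 4. Among those not printed, CASP8 windows 2 and 3 hold an AP-1 element (TGAGTCA and TGACTCA). CFLAR window 3 holds only the looser match TGAATCA, and CFLAR window 4 holds GC boxes. Whether any of these elements bears on the changes was not tested.

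The balance between the members was also taken as a ratio of FPKM within each library, which the scaling of libraries does not touch. There was 3.07, 2.81 and 2.77 times as much CFLAR as CASP8 in siControl, and 1.71, 1.98 and 1.97 times as much in siRBCK1. The mean ratio was 2.88 ± 0.165 in siControl and 1.89 ± 0.155 in siRBCK1 (SD, n = 3 per group), a difference of -0.61 on the log2 scale. CFLAR thus remained more abundant than CASP8 in all 6 libraries. The ratio of TNFRSF10B to TNFRSF10A differed by 0.29 on the log2 scale and that of MLKL to CASP8 by -1.36. For each of the 3 ratios the groups did not overlap, and the two-sided exact permutation test gave p = 0.1, which is the smallest value that 3 libraries against 3 allow (adjusted p = 0.1 over the 3 ratios). For CFLAR to CASP8 and MLKL to CASP8 this outcome was fixed beforehand. CFLAR and MLKL each fell and CASP8 rose without overlap between the groups, so their ratios could not overlap. The tests of these ratios therefore add nothing to the results of the single genes.

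**Figure D3:**
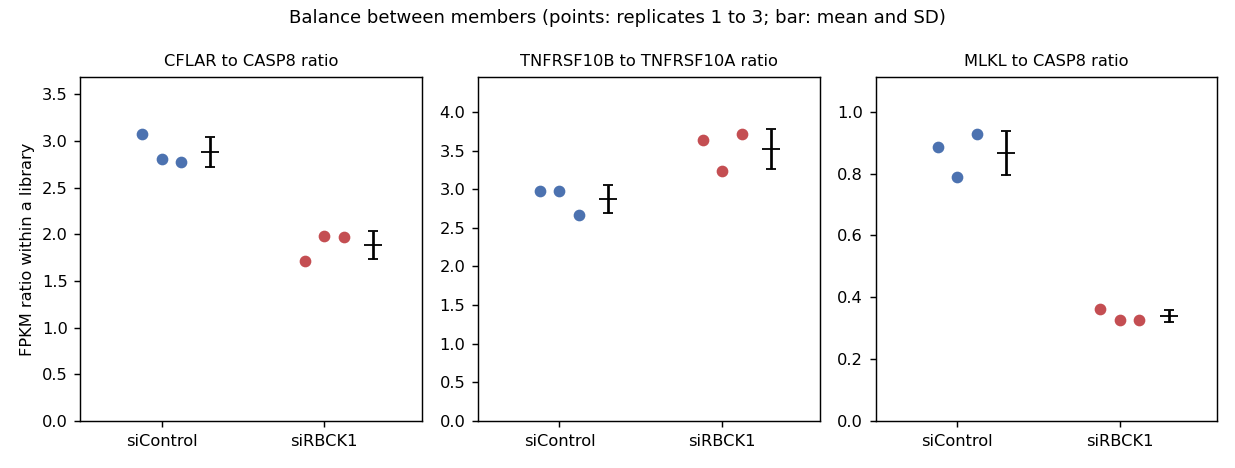
FPKM of the first gene over FPKM of the second within each library (vertical axis, linear and from 0) for 3 gene pairs in siControl (blue) and siRBCK1 (red), with the mean and SD as a bar. The CFLAR to CASP8 ratio lies between 2.77 and 3.07 in siControl and between 1.71 and 1.98 in siRBCK1.

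The mRNA of MLKL, which encodes the protein that carries out necroptosis, fell more than that of any other of the 10 genes. It was at 10.01, 9.29 and 10.49 FPKM in siControl and at 5.74, 4.69 and 4.84 FPKM in siRBCK1. No siRBCK1 library came near the controls, and the mean fell from 9.93 ± 0.604 to 5.09 ± 0.568 FPKM (SD, n = 3 per group). The log2 fold change was -0.85 (SE 0.087, 95% interval -1.04 to -0.66, adjusted p = 3.33e-05 by limma), which placed MLKL as number 104 from the lowest among the 11135 tested genes. Over the 15 other settings it lay between -0.99 and -0.80, with the call kept in each. No other annotated gene overlaps MLKL, which spans chr16:74671855-74700960 on the minus strand (GRCh38, GENCODE annotation). The MLKL to CASP8 ratio was 0.886, 0.788 and 0.927 in siControl and 0.361, 0.327 and 0.327 in siRBCK1. RIPK3, the kinase that activates MLKL, was listed at 0.09, 0 and 0 FPKM in siControl and at 0.03, 0 and 0 FPKM in siRBCK1. With unknown depth, these values say only that RIPK3 was near 0 in all 6 libraries, and no difference can be read from them. The MLKL promoter window is shown because MLKL changed most, chr16:74700813-74701112 on the minus strand (RefSeq, GRCh38.p14).
MLKL: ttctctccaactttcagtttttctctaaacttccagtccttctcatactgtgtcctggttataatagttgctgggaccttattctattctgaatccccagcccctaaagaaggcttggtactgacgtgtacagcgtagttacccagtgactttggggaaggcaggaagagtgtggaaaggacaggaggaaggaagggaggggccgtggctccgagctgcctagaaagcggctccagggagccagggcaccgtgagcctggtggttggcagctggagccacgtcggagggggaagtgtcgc
It is all in lower case because none of the elements searched was found in it, which says only that these letters are not in this window.

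Ordered by FPKM, which is a level per transcript length, the siControl means ran from TNFRSF1A (67.0) over FADD (44.7), CFLAR (33.1), TNFSF10 (31.9), TNFRSF10B (19.2), CASP8 (11.5), MLKL (9.93), TNFRSF10A (6.66) and FAS (2.17) to RIPK3. Among neighbours in this order only CFLAR and TNFSF10 overlapped between libraries. In siRBCK1 the order was the same except that MLKL, at 5.09 FPKM, lay below TNFRSF10A, at 6.82 FPKM. The distance between TNFSF10 and TNFRSF10B was 31.9 against 19.2 FPKM in siControl and 26.1 against 24.0 FPKM in siRBCK1.

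Beyond the 10 genes, 129 genes of the same pathways were listed, of which 127 were in the tables and 111 were tested. Of these 42 rose, 27 fell and 42 did not pass the test, beside 36.8% of all tested genes that rose and 17.1% that fell, and the median log2 fold change was 0.04 beside 0.11 for all tested genes. With quantile normalization 30 rose and 37 fell, beside 25% and 24.3% of all genes, and with trimmed-mean scaling 25 rose and 37 fell, beside 24.7% and 25.4%. The scaling moved the shares of all genes in the same way, and the same shares of all genes stand behind the counts of each list below. The genes named below from these lists are among those with the largest change of the called ones, at most 4 per list and 33 in all. All 33 kept their sign in every setting, and 3 of them, TNFSF15, TNFRSF10D and IPMK, lost the call in 1 setting each.

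**Figure D4:**
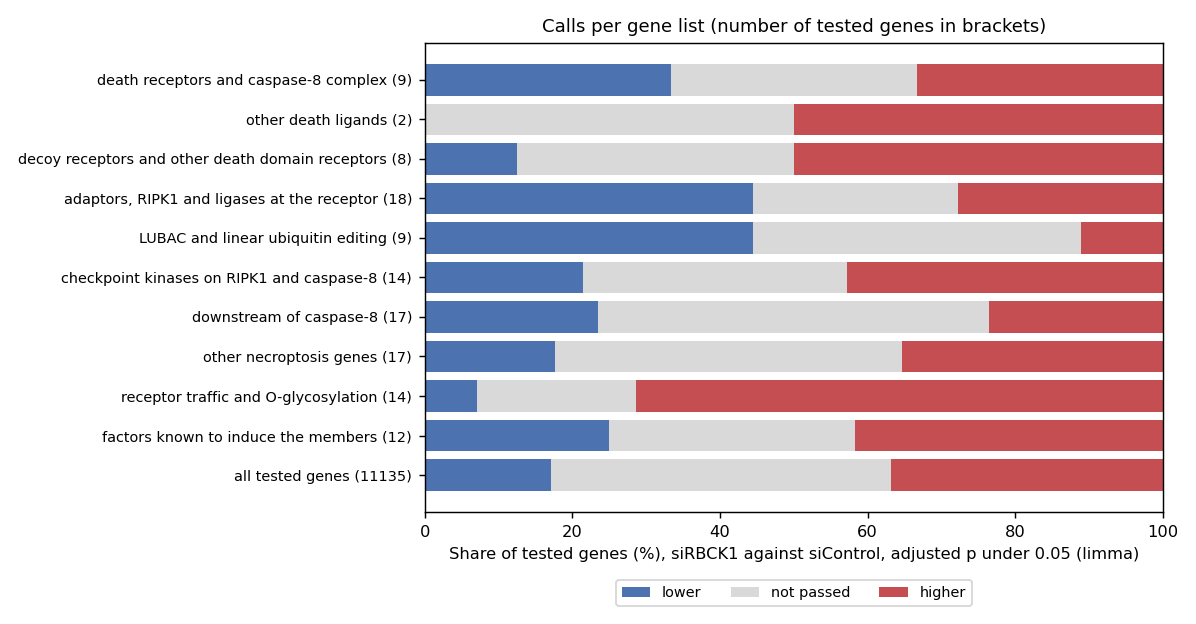
Share of the tested genes of each list (horizontal axis, percent) that were lower (blue), did not pass the test (grey) or were higher (red) in siRBCK1 at an adjusted p under 0.05 by limma; the number of tested genes is in brackets. In the bottom bar of all 11135 tested genes, 36.8% were higher and 17.1% lower.

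Of 12 genes in the list of decoy and other death domain receptors, 8 were tested, of which 4 rose, 1 fell and 3 did not pass. The list also holds receptors that are neither, TNFRSF1B among them, so these counts are not limited to decoys and death domain receptors. TNFRSF1B, the second receptor for tumour necrosis factor, which has no death domain, was at 9.86, 11.67 and 8.41 FPKM in siControl and at 4.61, 4.56 and 4.48 FPKM in siRBCK1. It fell to 45.6% of the control mean (log2 fold change -0.97, adjusted p = 3.71e-05 by limma), while TNFRSF1A did not fall. The decoy receptors for TRAIL moved the other way. TNFRSF11B, the soluble decoy osteoprotegerin, went from 1.23 ± 0.234 to 2.41 ± 0.152 FPKM (SD, n = 3 per group, log2 fold change 0.62). TNFRSF10D, a TRAIL receptor on the membrane with a truncated death domain, went from 6.38 ± 0.175 to 8.14 ± 0.142 FPKM, a log2 fold change of 0.31 whose call was lost with quantile normalization. TNFRSF10C, the other decoy on the membrane, was below the filter and was not tested. TNFRSF21, known as DR6, rose from 19.0 ± 1.44 to 26.2 ± 0.537 FPKM. Among the 7 other ligands 2 were tested, and TNFSF15, a ligand of the receptor DR3, rose from 3.09 ± 0.46 to 4.26 ± 0.323 FPKM, a call that was lost with the length trend removed.

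Of the 18 tested adaptors and ligases at the receptor, 8 were lower, 5 higher and 5 not past the test, beside 17.1% lower and 36.8% higher among all tested genes. After quantile normalization 9 were lower and 3 higher, beside 24.3% and 25% of all. TRAF1, an adaptor that binds TRAF2 and cIAP proteins and is a known NF-kB target, was at 15.64, 16.81 and 17.29 FPKM in siControl and at 6.85, 7.24 and 6.79 FPKM in siRBCK1. This was 42.0% of the control mean (log2 fold change -1.14, adjusted p = 8.74e-07 by limma). TRAF2, its partner in the tumour necrosis factor receptor complex, rose from 28.0 ± 0.537 to 36.7 ± 1.38 FPKM. CRADD, a death domain adaptor for caspase-2, rose from 4.03 ± 0.455 to 7.97 ± 0.761 FPKM (log2 fold change 0.84), and FAF1, a FAS-binding protein, fell from 40.6 ± 2.42 to 30.1 ± 1.26 FPKM. In the list of LUBAC and the enzymes that edit linear chains, 4 of the 9 tested genes fell, among them the target RBCK1, 1 rose and 4 did not pass. With RBCK1, SHARPIN, the second accessory subunit of LUBAC, fell from 119 ± 10.1 to 89.0 ± 3.61 FPKM (log2 fold change -0.41), and TNIP1, a protein that binds linear chains, fell from 206 ± 4.81 to 171 ± 2.39 FPKM. TAX1BP1, a partner of the deubiquitinase A20, rose from 17.6 ± 1.06 to 28.1 ± 0.252 FPKM (log2 fold change 0.65).

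Of 14 kinases known to act on RIPK1 or caspase-8 and the adaptors and scaffolds that hold such kinases, 6 were higher and 3 lower on the deposited values, and 2 were higher and 4 lower with either scaling. MAPKAPK2, the kinase MK2 that phosphorylates RIPK1, fell from 51.0 ± 6.37 to 34.9 ± 0.558 FPKM (log2 fold change -0.53), and TAB2, which couples ubiquitin chains to TAK1, fell from 15.2 ± 2.1 to 11.4 ± 1.12 FPKM. TANK, a scaffold for TBK1, rose from 13.2 ± 1.71 to 18.0 ± 0.551 FPKM, and RPS6KA1, the kinase RSK1, rose from 27.4 ± 1.8 to 34.4 ± 0.196 FPKM.

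Downstream of caspase-8, 4 of the 17 tested genes rose, 4 fell and 9 did not pass, with 3 higher and 7 lower after quantile normalization. CYCS, which encodes cytochrome c, rose from 32.4 ± 0.508 to 52.4 ± 1.48 FPKM (log2 fold change 0.68), a value that is uncertain because CYCS has many near-identical pseudogenes. APAF1, which binds cytochrome c to form the apoptosome, fell from 2.66 ± 0.509 to 1.77 ± 0.0379 FPKM (log2 fold change -0.39). PARP1, a DNA repair enzyme that caspases cleave, rose from 31.0 ± 2.98 to 45.4 ± 0.57 FPKM, and ROCK1, a kinase that caspases cleave, rose from 3.73 ± 0.552 to 5.31 ± 0.333 FPKM.

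Other necroptosis genes gave 6 higher, 3 lower and 8 not past the test among 17, and 3 higher and 5 lower with trimmed-mean scaling. SLC39A7, a zinc transporter needed for the surface transport of death receptors, rose from 67.6 ± 2.45 to 97.0 ± 3.83 FPKM (log2 fold change 0.52). The inositol phosphate kinases that act upstream of MLKL went opposite ways, with IPMK at 2.47 ± 0.46 and 3.45 ± 0.14 FPKM and ITPK1 at 64.5 ± 1.41 and 51.2 ± 1.55 FPKM in siControl and siRBCK1, and the call for IPMK was lost with the length trend removed. HSP90AA1, a chaperone of RIPK3 and MLKL, rose from 280 ± 18.9 to 340 ± 4.16 FPKM, and it also has many pseudogenes. ZBP1 and TLR3, sensors that can start necroptosis through RIPK3, were too low to be tested.

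Among 12 tested factors known to induce these genes, 5 rose, 3 fell and 4 did not pass, and with trimmed-mean scaling 3 rose and 4 fell. IRF1, an interferon-induced activator, fell from 24.1 ± 1.98 to 15.4 ± 0.45 FPKM (log2 fold change -0.61), and IRF9, the DNA-binding subunit of the interferon-activated complex ISGF3, fell from 11.7 ± 1.15 to 7.83 ± 0.206 FPKM (log2 fold change -0.52). JUN, a subunit of AP-1, rose from 46.3 ± 7.85 to 63.9 ± 6.22 FPKM (log2 fold change 0.46). These are mRNA levels, and the activity of the factors was not measured.

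The RefSeq table held 14 promoter windows of 300 bases for 7 of the 10 genes. The interferon regulatory factor element GAAANNGAAA was found in 2 of the 14, the TNFSF10 window and the CASP8 window printed above, and in 3.57% of the 35116 windows of all genes. TNFSF10 fell and CASP8 rose, and whether the element bears on either change was not tested. An NF-kB element was found in 2 windows, of CFLAR and FAS, and in 11.3% of all windows, and the STAT element TTCNNNGAA in 1 window and in 7.66% of all. The AP-1-like pattern TGANTCA, which allows any base in the middle, was found in 5 windows, beside 7.71% of all. The matches read TGAGTCA and TGACTCA in CASP8 windows 2 and 3. They read TGAATCA, which is not the usual AP-1 sequence, in FAS window 1, FADD window 1 and CFLAR window 3. The GC box GGGCGG was found in 7 windows, beside 45.0%, and the TEAD element GGAATG in none, beside 14.0%. CCAAT was found in 2 windows and TATAAA in 2, beside 34.6% and 11.5% of all. Both strands were searched, and a match is a description of the sequence and not a shown binding site. Several windows come from the same gene, so the 14 windows are not independent.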

How the data were processed

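RNA of MDA-MB-231 cells transfected with siControl or siRBCK1 (n = 3 libraries each) was sequenced on a BGI platform, and groups were taken from the labels. The authors deposited 1 table per library with FPKM values of the same 17149 genes. The processing notes of the submitters name GRCh38. No source used here gives the aligner, the quantification tool or the annotation. Of the Entrez gene numbers, 17022 were matched to a symbol. Inside the table of siRBCK1 replicate 2 the header names replicate 1, but only 3.03% of the values of both tables were identical, and each was used as a separate library.

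From these values log2(FPKM + 1) was computed. Genes that reached 1 FPKM in 3 or more libraries entered the test, for which limma 3.58.1 was run in R 4.3.3 (intensity trend, two-sided, Benjamini-Hochberg over 11135 genes, threshold 0.05). Fold changes are on the log2(FPKM + 1) scale, which understates changes of low genes. Without read totals no count test was run. Ratios were tested with SciPy 1.17.1 in Python 3.11.15 by exact permutation. Motifs were searched in RefSeq promoter windows of GRCh38.p14.

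The 10 genes and the other lists were chosen with earlier results of these data known. All 10 genes were named with RBCK1, and from each other list up to 4 called genes with the largest absolute change. FASLG, TNF, TNFRSF10C, ZBP1 and TLR3 were named after their low values were seen. Some genes that the lists hold are not reported here by name. Alternatives were a pseudocount of 0.1, no filter or 5 FPKM, 2 rescalings of the libraries (quantile normalization and trimmed means), array weights, no trend, a replicate block, removal of the length trend, and leaving out each library. The labels do not say that same-numbered libraries shared a culture, so the numbers were not taken as pairs. Deviations of same-numbered libraries correlated at -0.06, -0.187 and -0.038, which cannot settle the question with so few libraries. The test was first tried on simulated data in which few genes changed, so that trial does not speak to the large share of genes called here.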

Additional observations from a re-analysis of the deposited data

How the results depend on the processing

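CASP8, TNFRSF10B, TNFSF10, CFLAR and MLKL kept direction and call in all 15 alternatives, whereas the TNFRSF1A call was lost in 11 of 15, with log2 fold changes between 0.11 and 0.36 and adjusted p-values up to 0.201. The sign of TNFRSF10A, never called, turned with quantile normalization (-0.13), trimmed-mean scaling (-0.07) and the length trend removed (-0.05). FADD passed in 1 setting, without siRBCK1 replicate 1. FAS was not tested at 5 FPKM. The cause of these changes was not tested. Between 2 and 3 of the 10 genes were higher and 3 lower in every setting. Over all genes 4103 were higher and 1899 lower, against 2787 and 2703 when quantiles were equalised, 2746 and 2833 when trimmed means were, and 2803 and 2849 with the length trend removed. Leaving out 1 library gave 3166 to 4143 higher and 1489 to 1981 lower genes, CFLAR to CASP8 differences of -0.65 to -0.54, TNFRSF10B to TNFRSF10A differences of 0.24 to 0.35 and MLKL to CASP8 differences of -1.42 to -1.31 on the log2 scale. There the exact permutation test as run, which doubles the smaller tail, cannot go below p = 0.2.

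With the replicate block 3812 genes were higher and 1739 lower, and all 6 calls among the 10 genes remained. The ratios then differed by -0.61, 0.29 and -1.36 on the log2 scale (exact sign-flip p = 0.25, the smallest that 3 pairs allow). The labels give same-numbered libraries only a shared number. The deviations of no same-numbered pair correlated above 0.1, but so few libraries cannot show whether they shared a culture.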

Other observations

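A further list held genes of receptor traffic and O-glycosylation together with stress factors of the endoplasmic reticulum (EIF2AK3, DDIT3, ATF4 and XBP1). Of 17 genes 14 were tested, of which 10 rose, 1 fell and 3 did not pass the test (limma), beside 36.8% of all tested genes that rose and 17.1% that fell. The median log2 fold change was 0.23 beside 0.11 for all tested genes. With quantile normalization 8 rose and 1 fell, beside 25% and 24.3% of all. With trimmed-mean scaling 6 rose, 1 fell and 7 did not pass, beside 24.7% and 25.4% of all, and with the length trend removed the counts were again 6, 1 and 7. ZDHHC7, a palmitoyltransferase known to modify FAS, was at 19.39, 21.23 and 15.34 FPKM in siControl and at 30.34, 28.93 and 29.54 FPKM in siRBCK1 (log2 fold change 0.65, adjusted p = 0.000341 by limma). EIF2AK3, the stress sensor PERK of the endoplasmic reticulum, rose from 1.98 ± 0.414 to 3.45 ± 0.315 FPKM (SD, n = 3 per group), and the 3 siRBCK1 libraries lay above all controls. GALNT3, which starts O-glycosylation, rose from 5.39 ± 0.781 to 7.31 ± 0.603 FPKM, and GOLGA7, a partner of palmitoyltransferases, rose from 27.8 ± 1.65 to 36.4 ± 2.3 FPKM. The gene that fell was DDIT3, a stress-induced factor known to activate TNFRSF10B, at 15.13, 14.36 and 16.04 FPKM in siControl and 13.29, 13.67 and 12.43 FPKM in siRBCK1. It was named after its values were seen, its log2 fold change was -0.19 (adjusted p = 0.0337 by limma), and its call was lost in 5 of 15 other settings.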
